A study of Mus musculus with 6 samples.

Results

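The genes described are 10 liver-type genes for secreted proteins of the blood: Alb, Apoa1, Apoa2, Apoc3, Apoh, Ttr, Ahsg, Fga, Fgb and Fgg. They were taken by name, through the RefSeq transcripts of the array's non-control probes. They had 12 probes and 21 spots on each array, of 36983 genes and transcripts with 55681 probes and 59305 non-control spots. The 10 genes had been picked with results of these arrays in view, so their values are given here as a description. Calls from the test over all genes are counted for them, with nothing read from those calls. Total RNA labelled as gastrocnemius muscle was hybridised to 6 one-colour Agilent arrays in 3 groups of 2. MDX_JJ101 held MDX mice, which lack functional dystrophin, given the bioceramic water JJ101 for 10 months. The same mutant on tap water formed MDX_tap, and wild-type C57BL/10 mice on tap water formed B10_tap, for the same time. The labels give no age and do not say whether the replicates came from separate mice, so p-values measure the spread between these samples, which may be technical. The dystrophin mutation is carried by every cell of both MDX groups, and no C57BL/10 group on JJ101 is analysed here.

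Hepatocytes make most proteins of the plasma and release them through the secretory pathway. Alb encodes albumin, the main carrier and osmotic protein of plasma. Apoa1, Apoa2 and Apoc3 encode apolipoproteins of circulating lipid particles, and Apoh encodes beta-2-glycoprotein I, which binds phospholipids. Ttr encodes transthyretin, a carrier of thyroid hormone and of retinol-binding protein that the choroid plexus also makes. Ahsg encodes fetuin-A, an inhibitor of calcification, and Fga, Fgb and Fgg encode the chains of fibrinogen, the precursor of the fibrin clot. Skeletal muscle is not known as a source of albumin or fibrinogen. In bulk samples, fewer cells of a type and less RNA per cell cannot be told apart.

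The promoters of liver genes are known for sites of a small set of factors, among them HNF1, HNF4, FOXA and C/EBP proteins. RefSeq promoter sequences on GRCm38.p6 were matched for 8 of the 10 genes (9 promoters), not for Apoc3 and Ttr, and the 250 bases before the start were searched on both strands. Shown are the promoters of Alb and of the fibrinogen genes Fga and Fgb, in which both an HNF1 core motif and a C/EBP motif were found, and that of Ahsg, which had the C/EBP motif alone and a different pattern across the arrays. They lie at chr5:90460620-90460869 (plus strand), chr3:83025903-83026152 (plus strand), chr3:83049864-83050113 (minus strand) and chr16:22891765-22892014 (plus strand). Capitals mark GTTAAT, the HNF1 core motif (ATTAAC when read from the other strand), and TTGCNNAA, the C/EBP motif, in which N is any base.
Alb: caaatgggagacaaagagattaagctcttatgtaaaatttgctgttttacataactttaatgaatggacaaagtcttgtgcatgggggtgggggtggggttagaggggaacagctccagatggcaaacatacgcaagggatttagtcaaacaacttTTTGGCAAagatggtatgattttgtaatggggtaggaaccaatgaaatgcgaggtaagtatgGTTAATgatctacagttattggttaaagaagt
Fga: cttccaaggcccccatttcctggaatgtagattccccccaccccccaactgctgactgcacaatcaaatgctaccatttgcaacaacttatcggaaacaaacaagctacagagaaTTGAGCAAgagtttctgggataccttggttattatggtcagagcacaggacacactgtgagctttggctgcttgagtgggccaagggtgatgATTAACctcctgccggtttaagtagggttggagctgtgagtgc
Fgb: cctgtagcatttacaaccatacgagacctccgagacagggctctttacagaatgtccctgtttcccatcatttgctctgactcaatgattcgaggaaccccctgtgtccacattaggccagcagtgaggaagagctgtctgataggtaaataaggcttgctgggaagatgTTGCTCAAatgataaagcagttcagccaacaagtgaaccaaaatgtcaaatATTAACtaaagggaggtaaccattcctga
Ahsg: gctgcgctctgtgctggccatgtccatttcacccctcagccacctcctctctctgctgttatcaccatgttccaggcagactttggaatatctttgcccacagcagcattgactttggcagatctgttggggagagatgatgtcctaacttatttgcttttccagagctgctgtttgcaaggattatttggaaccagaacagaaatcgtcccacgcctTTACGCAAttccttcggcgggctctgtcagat
The HNF1 core GTTAAT was in 3 of the 8 genes (Alb, Fga and Fgb) and in 6.43% of all 32851 promoters of the same length. Apoa1, Apoh and Fgg were matched too and lacked it, though like Alb they were above background on B10_tap arrays alone. TTGCNNAA was in 5 of the 8 (Ahsg, Alb, Apoa2, Fga and Fgb), against 9.56% of all promoters. The FOXA motif TGTTTAC was in Apoa2 and Apoh, and in 3.17% of all promoters. CAAAGTNCA, the HNF4 motif, was in 0 of the 8 and in 1.19% of all, which says only that these letters are not in these windows. None of the 4 motifs contains another, though matches could overlap in a promoter. The genes were chosen by name, so these counts describe them and are no test.

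The arrays lay on 1 slide, MDX_JJ101 in its row 2 and the other 4 arrays in row 1, so that JJ101 and slide row cannot be told apart. B10_tap lay in columns 1 and 2 and both MDX groups in columns 3 and 4, so that genotype and column cannot be told apart either. The share of spots well above background was 43.8% and 42.5% on the MDX_JJ101 arrays, 49.6% and 48.1% on the MDX_tap arrays, and 51.6% and 51.4% on the B10_tap arrays. The lowest processed signal that was called well above background was 21.4 and 19.9 on the MDX_JJ101 arrays, 13.6 on both MDX_tap arrays, and 11.6 and 12.7 on the B10_tap arrays. The dimmest signals that counted as measured were thus brighter on the MDX_JJ101 arrays. Of 20 limb muscle markers, 8 and 6 were above background on the MDX_JJ101 arrays, 14 and 14 on the MDX_tap arrays and 14 and 13 on the B10_tap arrays. Myod1, a master regulator of skeletal muscle, was above background on no array. Of 15 heart markers, 14 or 15 were above background on each array, among them Myh6, Actc1 and Tnnt2, whose levels lay between 9.74 and 10.75, and Nppb, the gene of a heart hormone, at 7.07 to 7.74. Heart markers were thus measured on every array, and limb muscle markers in part. A level is the processed signal over the 75th percentile of its array, on the log2 scale, and levels of different probes are not set against each other.

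Of the 10 liver-type genes, 3 were well above background on both MDX_JJ101 arrays and 3 on both MDX_tap arrays, while 7 were on B10_tap replicate 1 and all 10 on B10_tap replicate 2. Apoa2, Ttr and Ahsg were measured on all 6 arrays. The other 7 were above background on B10_tap arrays and on no MDX array, which held for 6.36% of the 23404 genes above background on any array. Of these 7, Apoa1, Apoh and Fga were above background on B10_tap replicate 2 alone (2.15% of all). B10_tap replicate 2 gave the highest level for 8 of the 10, the exceptions being Ttr and Ahsg. Over all genes, that array was the highest for 14.6%. The genes were chosen with these arrays in view, so nothing is read from these shares.

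Alb had levels of -2.97 and -5.19 on the MDX_JJ101 arrays, -4.62 and -5.76 on the MDX_tap arrays, and -1.91 and -0.15 on the B10_tap arrays. As processed signals these were 27.6 and 5.32, then 9.69 and 3.78, then 57.7 and 201. The 2 B10_tap arrays lay above all 4 MDX arrays, and albumin transcript was well above background on the B10_tap arrays alone. The mean over the B10_tap arrays gave at least 4.28-fold lower Alb in MDX_JJ101 and at least 7.945-fold lower Alb in MDX_tap. A bound is stated because the MDX signal was not well above background. It sets the B10_tap mean against the lowest signal called on each MDX array, or the dim signal itself where that was higher. That lowest signal is no strict threshold: on MDX_JJ101 replicate 1 it was 21.4, while Alb at 27.6 was not called. Bounds here and below are therefore approximate. The albumin level of the 2 B10_tap arrays themselves differed 3.41-fold. Against B10_tap replicate 1 alone the bounds were 2.32-fold for MDX_JJ101 and 4.304-fold for MDX_tap.

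The apolipoprotein genes split into those below background in MDX muscle and Apoa2. Apoc3, an inhibitor of lipoprotein lipase, had -3.28 and -5.18 on the MDX_JJ101 arrays, -4.30 and -4.29 on the MDX_tap arrays, and -2.86 and -0.31 on the B10_tap arrays. B10_tap was again above every MDX array, at least 3.25-fold over MDX_JJ101 and at least 5.41-fold over MDX_tap, and its own 2 arrays were 5.86-fold apart. Against B10_tap replicate 1 alone the bounds were 1.34-fold for MDX_JJ101 and 2.23-fold for MDX_tap. Apoh had -4.13 and -5.45 on the MDX_JJ101 arrays, -6.35 and -4.17 on the MDX_tap arrays, and -4.21 and -1.88 on the B10_tap arrays. B10_tap replicate 1 lay within the range of the MDX arrays, so the groups overlapped, and a level above background existed on B10_tap replicate 2 alone. The bound on Apoh was 1.21-fold lower at least in MDX_JJ101 and 1.97-fold in MDX_tap, each resting on that array.

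Apoa1, the main protein of high-density lipoprotein, had -5.40 and -5.33 on the MDX_JJ101 arrays, -6.11 and -5.94 on the MDX_tap arrays, and -5.75 and -2.91 on the B10_tap arrays. Its probe was printed 10 times on each array, which shows the spread between spots of 1 hybridisation. On B10_tap replicate 2 all 10 spots were above background, with signals of 23.7 to 36.1 and a median of 29.1. On B10_tap replicate 1 none of the 10 was, and the median was 3.06. The medians were 5.09 and 4.92 on the MDX_JJ101 arrays and 3.58 and 3.45 on the MDX_tap arrays, with 0 spots above background after spots marked as outliers were left out. MDX_JJ101 replicate 2 had 2 such outliers, the brightest at 46.8, and MDX_tap replicate 1 had 2. B10_tap replicate 2 read at least 2.502-fold above replicate 1 in Apoa1, a bound because replicate 1 was not above background. The B10_tap mean did not exceed the lowest called signal of the MDX arrays, so no fold is given between groups.

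**Figure D1:**
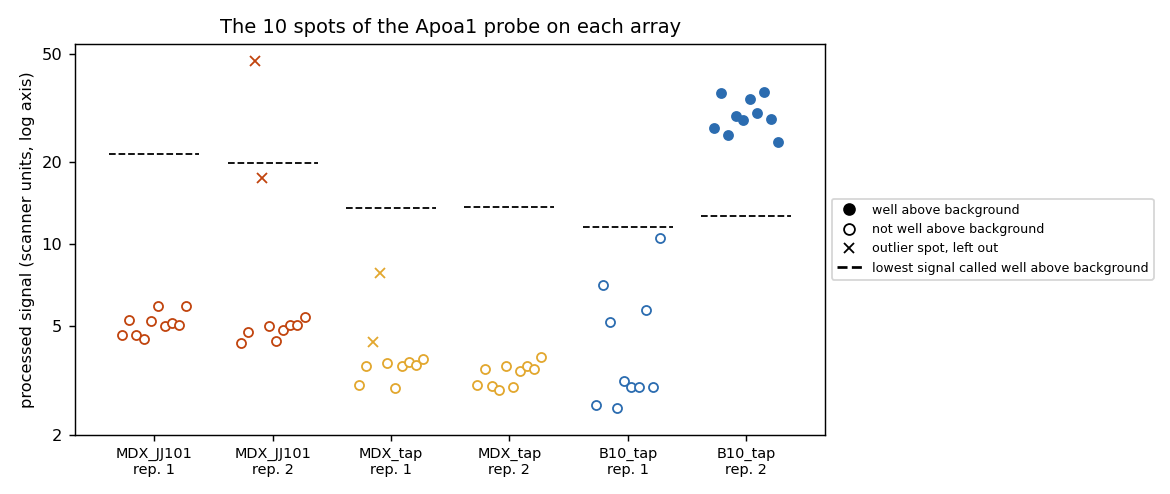
Processed signal (scanner units, log axis) of the 10 spots of the Apoa1 probe on each array, ordered MDX_JJ101, MDX_tap, B10_tap; filled points are well above background, crosses are outlier spots left out, and dashed lines mark the lowest signal called well above background on that array. All 10 spots of B10_tap replicate 2 lie at 23.7 to 36.1, above its line, and no other array has a used spot above background.

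Apoa2, a further protein of high-density lipoprotein, was measured on every array. It had 2.62 and 2.44 on the MDX_JJ101 arrays, 2.25 and 2.31 on the MDX_tap arrays, and 2.77 and 3.27 on the B10_tap arrays. The means were 2.53 ± 0.13 in MDX_JJ101, 2.28 ± 0.04 in MDX_tap and 3.02 ± 0.36 in B10_tap (SD, n = 2 each), and no 2 groups overlapped. The log2 difference was -0.49 for MDX_JJ101 against B10_tap and -0.74 for MDX_tap against B10_tap. A second Apoa2 probe had -0.76 and -1.24 on the MDX_JJ101 arrays, -1.42 and -1.81 on the MDX_tap arrays, and -0.86 and 0.72 on the B10_tap arrays. That probe put B10_tap replicate 1 inside the MDX_JJ101 range and made B10_tap replicate 2 stand apart 2.99-fold, against 1.42-fold with the first probe. The 2 probes therefore disagreed on the size of the difference and on whether MDX_JJ101 and B10_tap overlapped.

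Among the fibrinogen genes, Fgb had -3.85 and -5.47 on the MDX_JJ101 arrays, -6.12 and -4.40 on the MDX_tap arrays, and -3.70 and -1.90 on the B10_tap arrays. Fgg had -3.52 and -5.55 on the MDX_JJ101 arrays, -6.41 and -6.21 on the MDX_tap arrays, and -3.94 and -2.36 on the B10_tap arrays. Both were above background on the B10_tap arrays alone, and MDX_JJ101 replicate 1 read above B10_tap replicate 1 for Fgg without passing its own array's background call. The bounds for Fgb were at least 1.43-fold lower in MDX_JJ101 and at least 2.33-fold lower in MDX_tap. For Fgg they were at least 1.12-fold in MDX_JJ101 and at least 1.83-fold in MDX_tap. Against B10_tap replicate 1 alone, neither gene allowed a bound for MDX_JJ101, and those for MDX_tap were 1.25-fold for Fgb and 1.06-fold for Fgg. Fga had -5.61 and -4.90 on the MDX_JJ101 arrays, -5.002 and -6.16 on the MDX_tap arrays, and -4.49 and -3.91 on the B10_tap arrays. It was above background on B10_tap replicate 2 alone, at a signal of 14.8, and allows no fold. The second Fga probe was above background on no array. The 2 B10_tap arrays were 3.48-fold apart in Fgb and 2.98-fold in Fgg, and at least 1.254-fold in Fga, which replicate 1 did not measure.

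Ttr and Ahsg did not follow the others. Ttr had -1.92 and -1.75 on the MDX_JJ101 arrays, -2.98 and -2.82 on the MDX_tap arrays, and -2.20 and -1.80 on the B10_tap arrays. It averaged -1.83 ± 0.12 in MDX_JJ101, -2.90 ± 0.11 in MDX_tap and -2.003 ± 0.28 in B10_tap (SD, n = 2 each). MDX_tap was thus the low group, 2.09-fold under MDX_JJ101 and 1.86-fold under B10_tap, while MDX_JJ101 and B10_tap overlapped. Ahsg had 1.33 and 1.25 on the MDX_JJ101 arrays, 1.83 and 1.64 on the MDX_tap arrays, and 0.79 and 1.30 on the B10_tap arrays. It averaged 1.29 ± 0.05 in MDX_JJ101, 1.73 ± 0.14 in MDX_tap and 1.05 ± 0.36 in B10_tap (SD, n = 2 each). Fetuin-A transcript was thus highest in MDX_tap, with a log2 difference of 0.69 from B10_tap, and MDX_JJ101 and B10_tap overlapped.

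**Figure D2:**
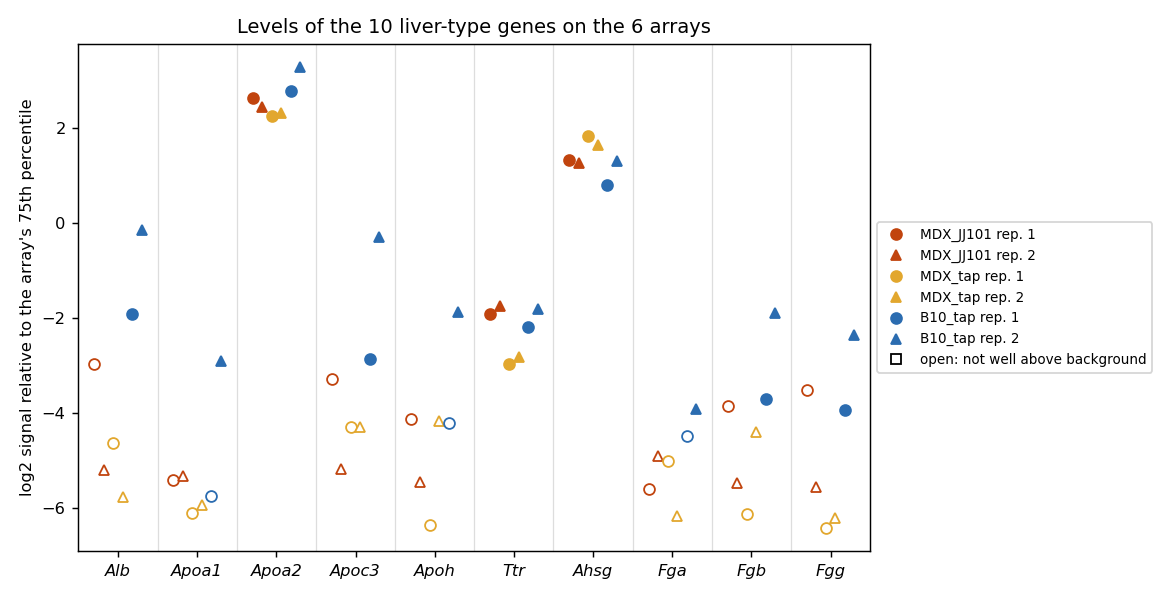
Level of each of the 10 genes (vertical axis, log2 signal relative to the array's 75th percentile) on the 6 arrays, ordered MDX_JJ101, MDX_tap, B10_tap within each gene; circles are replicate 1, triangles replicate 2, and open symbols are not well above background. For 7 genes every MDX symbol is open, 8 of the 10 genes are highest on B10_tap replicate 2, and Ahsg is highest on the MDX_tap arrays; heights of different genes come from different probes and are not comparable.

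Over the 10 genes, the median log2 difference was -1.22 for MDX_JJ101 against B10_tap and -1.96 for MDX_tap against B10_tap, beside -0.01 and -0.06 over all genes tested. With normexp and quantile normalization the medians were -0.38 and -0.43. For MDX_JJ101 against MDX_tap it was 0.54, beside 0.00 over all genes, and in that comparison 7 of the 10 genes were above background in neither group. Leaving out B10_tap replicate 2 brought the median to -0.59 for MDX_JJ101 and to -1.07 for MDX_tap. Leaving out B10_tap replicate 1 instead gave -2.32 and -3.24. In MDX_tap each of the 10 genes kept its sign either way, 9 lower and Ahsg higher. In MDX_JJ101, Apoa1 had a difference of 0.38 without B10_tap replicate 2 and of -2.45 without replicate 1, and Ttr and Ahsg also changed sign. The 2 comparisons against B10_tap share its arrays, and most of these values rest on signals below background in MDX.

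The arrays of MDX_JJ101 and B10_tap did not overlap for 5 of the 10 genes, all reading lower in MDX_JJ101 (background 36.2% lower, 37% higher). Background shares here are of the 23395 genes above background on 1 array or more. Fga was among the 5 but allows no fold, so no direction is read for it. Apoa2 was also among them, though its second probe overlapped. Those of MDX_tap and B10_tap did not overlap for 9, of which 8 read lower and Ahsg was higher in MDX_tap (background 34.7% lower, 24% higher). Apoa1 and Fga were among the 8 but above background on B10_tap replicate 2 alone, so no direction is read for them. Those of MDX_JJ101 and MDX_tap did not overlap for the 3 genes measured there, with Ahsg lower and Apoa2 and Ttr higher in MDX_JJ101 (background 33.9% lower, 36.8% higher). Those of Apoa1 and Fgg did not overlap either, but were above background on no MDX array, so no direction is read. Only 7 of the 10 genes passed the filter on low signal, and Alb, Apoc3, Fgb and Fgg did so through B10_tap, the group where they were high. In limma's moderated test over 20870 genes, with Benjamini-Hochberg adjustment, 0 of these 7 were called between MDX_JJ101 and B10_tap, where 33.6% of all genes were called. The count there was 4 lower with spike-in scaling, 2 lower with normexp and with the authors' deposited log2 values, 1 higher and 1 lower with median centring, and 1 lower without MDX_JJ101 replicate 1. Between MDX_tap and B10_tap 0 of 7 were called, where 0.024% of all genes were, and 4 were lower with spike-in scaling (Alb, Apoc3, Fgb and Fgg). These 4 had entered the test through B10_tap alone, so nothing is read from their calls in either comparison with B10_tap. With spike-in scaling limma's smallest adjusted p over all genes was 4.41e-93 for MDX_JJ101 against B10_tap and 7.53e-38 for MDX_tap against B10_tap. It was 0.0035 and 0.012 in the main fit. With 2 arrays a group, such small values are not taken at face value. Between MDX_JJ101 and MDX_tap, 1 of 7 (Ttr, higher in MDX_JJ101) was called, where 36.1% of all genes were. Ttr was not called with spike-in scaling, with slide column as a block, or without either MDX_tap array. Between MDX_JJ101 and MDX_tap, Ahsg was called lower with normexp. Fgg was called higher there with spike-in scaling, though above background on no MDX array. A missed threshold with 2 arrays a group does not show that levels were equal.

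**Figure D3:**
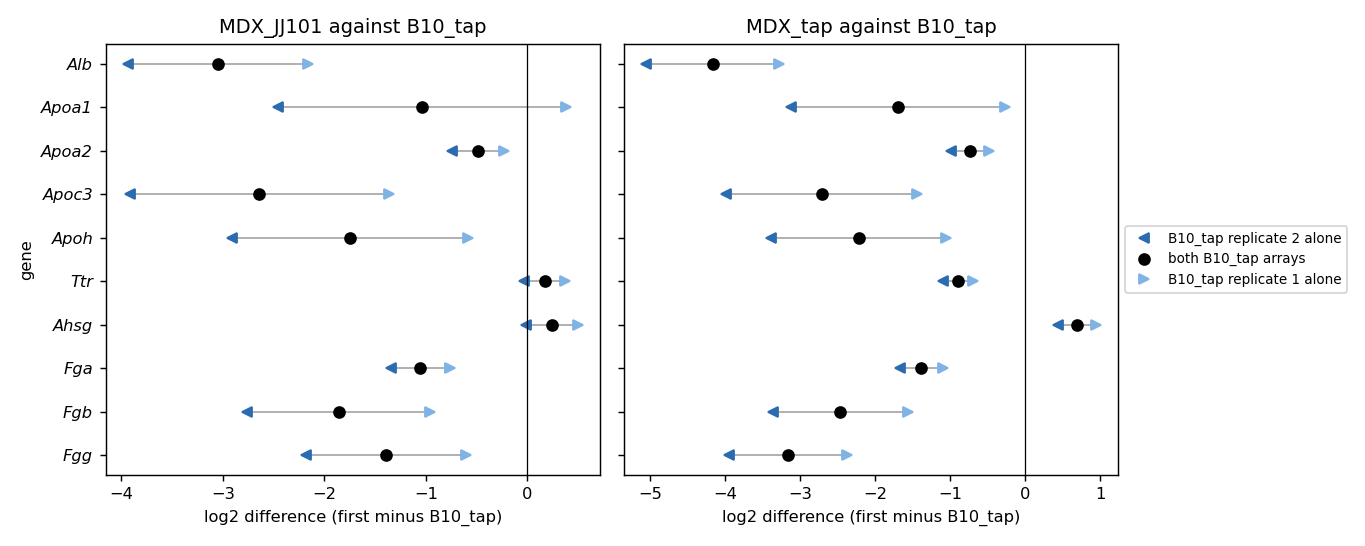
Log2 difference from B10_tap of each gene in MDX_JJ101 (left panel) and MDX_tap (right panel), with both B10_tap arrays (black circles), with B10_tap replicate 2 alone (dark triangles) and with B10_tap replicate 1 alone (light triangles). The median over the 10 genes is -1.22 and -1.96 with both arrays, and -0.59 and -1.07 with replicate 1 alone; MDX values of 7 genes are not well above background.

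The 2 B10_tap arrays also differed from each other. Replicate 2 read higher than replicate 1 for all 10 genes, by a median log2 difference of 1.67, beside 0.00 over the 22101 genes above background on either array. The difference of the read values reached 2-fold for 6 of the 10 (Alb, Apoa1, Apoc3, Apoh, Fgb and Fgg) and for 2.47% of all genes, and 0 of the 10 were 2-fold lower, against 1.47% of all genes. Apoa1 and Apoh were not above background on replicate 1, and their bounds were 2.502-fold and 5.02-fold. Of the 7 genes measured on both B10_tap arrays, 4 reached 2-fold, against 0.653% of all genes so measured. In the MDX groups the 3 genes that were measured differed by less than 2-fold between replicates. Across the 6 arrays, levels of Alb ran with those of Apoa2 (Pearson r = 0.95), Apoc3 (0.94) and Fgg (0.93). They ran against those of Ahsg (r = -0.54). The 6 arrays share groups and, for B10_tap replicate 2, 1 high array, and many values are below background, so these correlations are descriptions only.

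Other liver genes were read from lists of genes that are not among the 10. Of 69 further plasma protein genes on the array, 28 and 22 were above background on the MDX_JJ101 arrays, 32 and 29 on the MDX_tap arrays, and 37 and 48 on the B10_tap arrays. Of the 51 that were above background on any array, 36 (70.6%) were highest on B10_tap replicate 2, against 14.6% of all genes. Of these 51, 9 (17.6%) counted only because they were above background on that array, against 2.15% of all genes. B10_tap replicate 2 read at least 2-fold above replicate 1 for 27 of 50 and at least 2-fold below it for 0, and of the 35 measured on both arrays 15 were 2-fold above. Of 46 liver enzymes and transporters, 9 and 8 were above background on the MDX_JJ101 arrays, 16 and 11 on the MDX_tap arrays, and 17 and 25 on the B10_tap arrays. Here 17 of 27 (63.0%) were highest on B10_tap replicate 2, and 13 of 25 read at least 2-fold above replicate 1 and 0 below. Of these 27, 7 (25.9%) were above background on that array alone. The lists were chosen with earlier results of these data known, so nothing is read from these shares. Of the 17 measured on both B10_tap arrays, 5 were 2-fold above. The transcription factor list went another way: 2 of 9 (22.2%) were highest on that array and 1 of 9 read at least 2-fold above replicate 1. That factor was Hnf4a, a regulator of hepatocyte genes, above background on B10_tap replicate 2 alone at a level of -3.63. It read -6.53 on replicate 1, under that array's lowest called level of -4.23, so its bound does not reach 2-fold. Without B10_tap replicate 2, 7 of the 10 liver-type genes, 42 of the plasma list, 20 of the enzymes and 8 of the factors were above background on any array. The part of this array in the difference between genotypes was not tested beyond leaving it out.

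**Figure D4:**
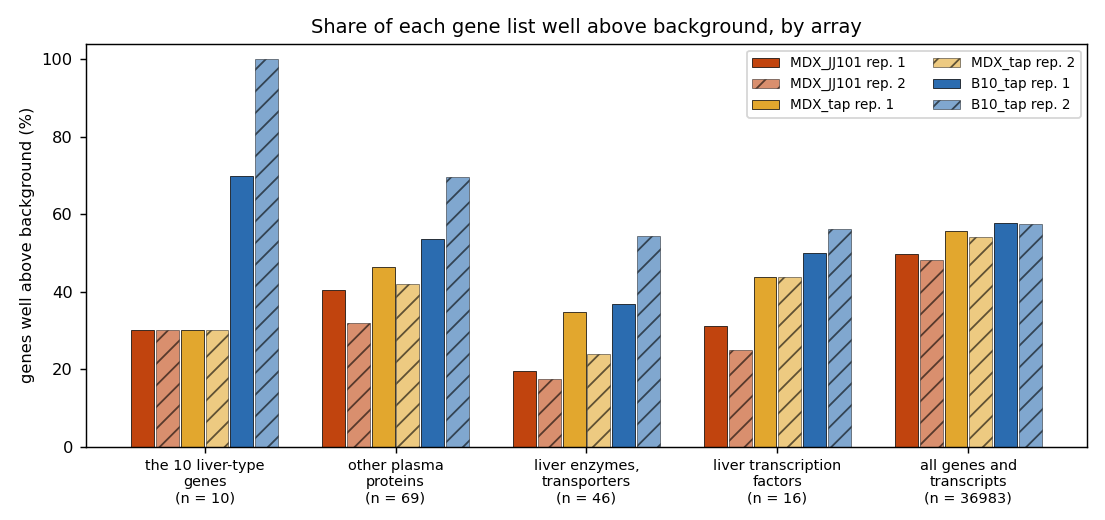
Share of the genes of each list that were well above background (%), by array, ordered MDX_JJ101, MDX_tap, B10_tap, with replicate 2 hatched; the number of genes on the array is given under each list. The share of the 10 genes is 30% on each MDX array, 70% on B10_tap replicate 1 and 100% on replicate 2, while 21356 and 21278 of all genes and transcripts pass on those arrays.

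The 8 plasma protein genes of highest mean signal showed both patterns. F10 (coagulation factor X), Trf (transferrin), Cp (ceruloplasmin), Vtn (vitronectin) and Hp (haptoglobin) differed by 1.06-fold to 1.39-fold between the B10_tap arrays. Serpina1a, Serpina1c and Serpina1e, which encode alpha-1-antitrypsin forms, differed by 3.75-fold to 3.93-fold. Serpina1a had 0.99 and -0.36 on the MDX_JJ101 arrays, 0.91 and -0.15 on the MDX_tap arrays, and 1.24 and 3.16 on the B10_tap arrays. These serpin genes are near-identical copies, so their probes may read each other's transcripts. Among the enzyme and transporter genes of highest mean signal, Ass1, Fah, Asl, Gnmt, Asgr2 and Slc10a1 differed by 1.03-fold to 1.21-fold between the B10_tap arrays, and Cyp2e1 by 1.95-fold. Slc10a1, the bile acid uptake transporter of hepatocytes, was at 8.48 to 9.12 on all 6 arrays. Whether its probe reads transcripts of other genes was not tested.

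The next 3 genes lie outside the rule for names and were picked after their values were seen. Cyp3a11, a drug-metabolising cytochrome, was above background on B10_tap replicate 2 alone, at -1.70, and so was Apob, the protein of very-low-density lipoprotein, at -2.24. Cps1, the first enzyme of the urea cycle, was at -1.57 and -1.77 on the B10_tap arrays and above background on no MDX array. Cps1 was at least 3.12-fold lower in MDX_JJ101 and at least 5.10-fold lower in MDX_tap. Its B10_tap arrays were 1.15-fold apart.

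The MDX_JJ101 arrays also differed among themselves in liver genes. Of 30 further plasma protein genes measured there, 12 (40.0%) read at least 2-fold higher on replicate 1 than on replicate 2, and 2 at least 2-fold lower, against 4.71% and 2.4% of all genes. Of the 20 measured on both MDX_JJ101 arrays, 4 were 2-fold higher on replicate 1 and 1 was lower. Among these 12, Mup20, a major urinary protein, had -1.99 on MDX_JJ101 replicate 1 and -5.56 on replicate 2, and Ambp, the precursor of alpha-1-microglobulin, had -2.34 and -5.27. Mup20 and Ambp also lie outside the rule for names. Of 10 enzymes, 2 read at least 2-fold higher on replicate 1 and 0 lower. Alb, Apoc3, Apoh, Fgb and Fgg also read at least 2-fold higher on MDX_JJ101 replicate 1, while Fga and Apoa1 read higher on replicate 2. None of these genes passed the background call on either array. On the MDX_tap arrays, 4 of 33 plasma protein genes and 2 of 16 enzymes read at least 2-fold higher on replicate 1, and 1 of each at least 2-fold lower, against 1.96% and 1.97% of all genes.

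**Figure D5:**
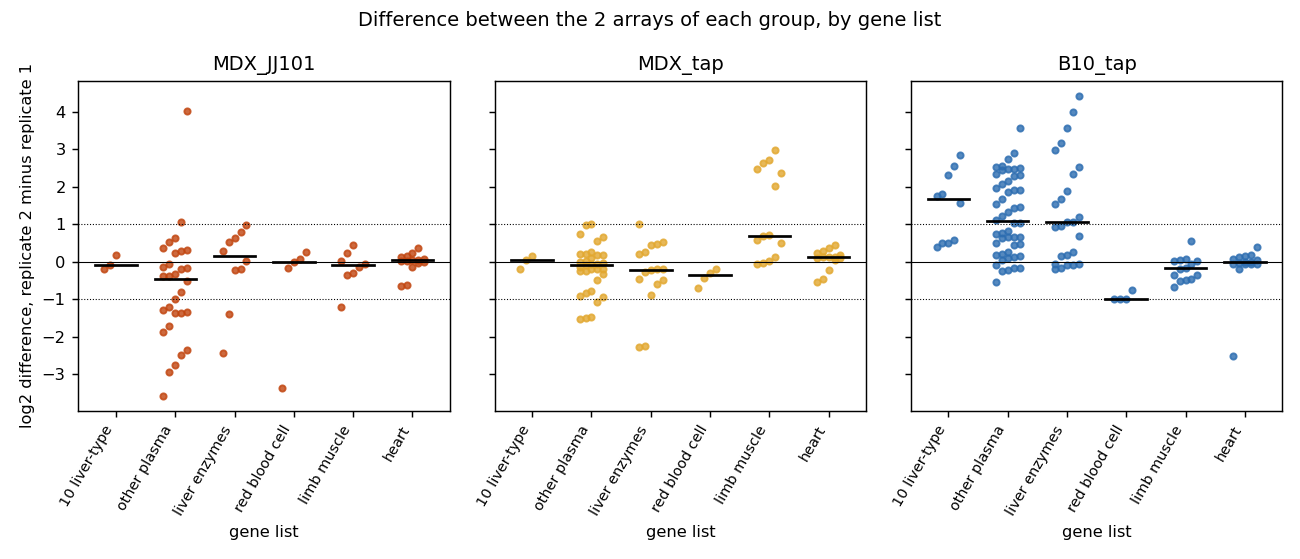
Log2 difference of replicate 2 minus replicate 1 (vertical axis) for each gene above background on either array of a group, by gene list, in MDX_JJ101, MDX_tap and B10_tap; bars are medians and dotted lines mark 2-fold. In B10_tap the 10 genes have a median of 1.67, other plasma proteins 1.08 and liver enzymes 1.05, while limb muscle and heart genes lie near 0 and red blood cell genes at -0.99.

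Markers of other sources of these transcripts were read in the same way between the B10_tap arrays. The number at least 2-fold higher on replicate 2 was 0 of 2 small intestine genes, 0 of 5 exocrine pancreas genes, 0 of 4 kidney genes and 0 of 2 choroid plexus and yolk sac genes that were measured. Sis and Cdh17 of intestine, Cpa1 of pancreas, Umod and Nphs1 of kidney, and Kl and Afp of choroid plexus and yolk sac were above background on no array. Detected genes of those lists were led by Anpep, Lgals4 and Vil1, by Amy2a5, Cel and Ctrb1, by Slc22a6, Aqp2 and Cdh16, and by Rhox5, Cubn and Folr1. The number was 1 of 9 adipocyte genes (led by Lpl, Fabp4 and Pparg), 0 of 10 endothelial genes (Flt1, Vwf and Kdr), 0 of 9 macrophage genes (Itgam, Csf1r and Lyz2), 0 of 14 limb muscle genes (Myl1, Atp2a1 and Mybpc2) and 0 of 15 heart genes. Red blood cell genes moved the other way. Hba-a1, Hbb-b1, Alas2 and Slc4a1 were all higher on B10_tap replicate 1, with a median of -0.99 for replicate 2 minus replicate 1 on the log2 scale and with Hba-a1 at 8.92 on replicate 1 and 7.93 on replicate 2. The part of blood in the values of the 10 genes was not tested. In MDX_tap, limb muscle genes instead separated the arrays: 6 of 14 read at least 2-fold higher on replicate 2, where Tnnt3 had 1.93 against -0.53 on replicate 1.

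The lists were also followed through limma's test between groups, adjusted over all 20870 genes. Between MDX_JJ101 and MDX_tap, 0 of 38 plasma protein genes tested rose and 6 fell (Apoc2, F10, F5, Fetub, Itih1 and Trf), where 19.9% of all genes rose and 16.1% fell. Trf fell by 0.98 ± 0.17 (SE) on the log2 scale (adjusted p = 0.0160), and F10 fell by 0.88 ± 0.20 (adjusted p = 0.0266). Of 17 enzymes and transporters 0 rose and 3 fell (Asgr2, Slc10a1 and Tat). Of 8 transcription factors, 1 rose and 4 fell. Nr0b2, a repressor in bile acid control, rose by 0.87 ± 0.16 (SE, adjusted p = 0.0178), and Cebpa, Nr1h4 and Nr1i3 were among those that fell. Nr1i3, F5, Tat and Itih1 were not above background in MDX_JJ101, so their falls are bounded: at least 1.24-fold for Nr1i3, 1.44-fold for Tat and 1.15-fold for Itih1, with no fold for F5. Itih1 had entered the test through B10_tap alone. The median difference was -0.19 for the plasma list, -0.20 for the enzymes and -0.59 for the factors, beside 0.00 for all genes. The other factors tested, Prox1, Nr5a2 and Onecut2, were not called. Hnf4a did not pass the filter on low signal and was not tested. Without MDX_tap replicate 2, 48 of all genes were called, and with slide column as a block 0 were (8858 at an unadjusted p under 0.05).

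Between MDX_JJ101 and B10_tap, 0 of 38 plasma protein genes rose and 7 fell (Cpb2, F5, F9, Itih1, Mbl2, Mup3 and Saa1), where 16.2% of all genes rose and 17.4% fell. The enzymes gave 0 and 7 of 17 (Bhmt, Cps1, Fbp1, Pck1, Slc10a1, Slc27a5 and Tat), and the factors 1 (Nr0b2) and 3 of 8 (Nr1h4 and Nr1i3 among them). Apart from F9, Saa1, Slc10a1 and Nr1h4, the genes that fell were above background on neither MDX_JJ101 array. Their bounds ran from at least 1.05-fold (Fbp1) to at least 3.12-fold (Cps1), with no fold for F5 and Mbl2. Of these, 4 of the plasma proteins (Cpb2, Itih1, Mbl2 and Mup3) and 4 of the enzymes (Bhmt, Cps1, Fbp1 and Slc27a5) had entered the test through B10_tap alone, the group where they were high, so nothing is read from their calls. Slc10a1 fell by 0.59 ± 0.11 (SE) on the log2 scale (adjusted p = 0.0209). Without B10_tap replicate 2, 1 plasma protein gene (Mup3), 0 enzymes and 0 factors were called in this comparison, of 76 calls over all genes. Between MDX_tap and B10_tap, limma called 0 genes of any list, where 0 genes of all rose and 5 fell (4383 had an unadjusted p under 0.05). The median difference there was -0.71 for the plasma list and -0.70 for the enzymes, beside -0.06 for all genes, and -0.39 and -0.40 without B10_tap replicate 2. Both lists hold genes that entered the test through B10_tap alone, among them Mup3 and Cps1. Nothing is read from these medians.

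The proteins that the 10 genes encode are bound, taken up or handled by other proteins, and 21 genes for these were listed. Among them were Vldlr for lipoproteins, Cd36 for lipids, Lpl for triglyceride release, Fcgrt for albumin and integrins for fibrinogen. Not all of the 21 encode receptors. In all, 17 were above background on each of the 6 arrays. Between MDX_JJ101 and MDX_tap, 1 of 17 tested rose (Itgam) and 4 fell (Abca1, Itgav and Itgb2 among them). Of all genes, 19.9% rose and 16.1% fell there. Abca1, which loads lipid onto apolipoprotein A-I, fell by 0.95 ± 0.11 (SE) on the log2 scale (adjusted p = 0.0128). Between MDX_JJ101 and B10_tap, 3 of the 17 fell (Abca1 and Pltp among them), and none of the 17 was called without B10_tap replicate 2. In MDX_JJ101 against B10_tap, 17.4% of all genes fell. Between the B10_tap arrays, 1 of the 17 reached 2-fold. It was Rbp4, which encodes a plasma protein, is also in the plasma list and lies outside the rule for names. Of the other lists, the numbers that rose and fell between MDX_JJ101 and MDX_tap were 5 and 0 of 14 heart genes, 3 and 7 of 14 limb muscle genes, 1 and 6 of 9 macrophage genes, 0 and 6 of 10 endothelial genes, 0 and 5 of 8 adipocyte genes and 0 and 1 of 4 red blood cell genes. They were 0 and 1 of 5 exocrine pancreas genes and 0 and 1 of 4 kidney genes. Of 2 genes each of small intestine and of choroid plexus and yolk sac, 0 rose and 0 fell. These counts stand beside the same 19.9% and 16.1% of all genes. Itgam is in the macrophage list too and counts in both.

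Apoa2, the member of highest mean signal, served to find genes of like pattern. Over the 6 arrays, the non-member genes with the highest Pearson r to its level were Mug1 (0.993), Mrpl50 (0.991), Cldn9, Gmnn, Zfand1 and Arl4d (0.982 each), Mup2 (0.980) and Mup5 (0.978). Mug1 encodes the plasma protease inhibitor murinoglobulin, Mup2 and Mup5 encode major urinary proteins and Mrpl50 a protein of the mitochondrial ribosome. Mug1 had -4.00 and -5.38 on the MDX_JJ101 arrays, -6.09 and -5.90 on the MDX_tap arrays, and -3.90 and -1.44 on the B10_tap arrays. Mup5 had -4.18 and -5.49 on the MDX_JJ101 arrays, -6.36 and -4.92 on the MDX_tap arrays, and -2.73 and 0.75 on the B10_tap arrays. Mug1 was above background on the B10_tap arrays alone. The Mup5 levels on the MDX arrays were under the lowest level called on each of them. Both genes thus entered the ranking through B10_tap, the group where they were high, and nothing is read from their r. Mrpl50 lay between 3.57 and 3.88 on all arrays, so a high r did not mean a large difference. In all, 72 of 13940 genes with a symbol (0.516%) had an r above 0.9, and with 6 arrays in 3 groups this ranks genes without a test.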

How the data were processed

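Total RNA was hybridised to 6 one-colour (Cy3) Agilent arrays. The authors' intensity values come from Agilent Feature Extraction 11.5.1.1 according to the submitters' processing notes. Per the file headers, the deposited processed signal is background-subtracted, and deposited 0 or 1 flags mark spots well above background and outlier spots. The authors' deposited series table holds log2 values, ranked on each array as the median spot signal is (Spearman correlation of 1), with column medians of 5.68 to 5.69. Its centring is not given in the sources used here, and it served as an alternative.

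Levels were log2 processed signals, less the 75th percentile over the non-control spots of each array. Outlier spots were left out and spots of a probe averaged. A probe was kept if well above background on both arrays of 1 group or more, and for each gene the probe of highest mean was used, leaving 20870 genes and transcripts. RefSeq accessions paired 27656 of 55681 probes with a symbol through a GRCm38.p6 gene table. Array coordinates are on mm9 and none is printed. A gene counted as above background if at least 0.5 of its used spots were. All 6 arrays entered 1 limma fit (limma 3.58.1, R 4.3.3) with a coefficient per group, 3 residual and 2.21 prior degrees of freedom. The moderated test was two-sided, Benjamini-Hochberg adjustment ran over all genes, and the threshold was 0.05. The number of arrays and signal over background limit the precision. The steps were tested on simulated data. The planned normexp alternative used the median spot signal, because the files used here have no mean signal.

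Named were the 10 genes, the 8 genes of highest mean level of the plasma protein and the enzyme lists, all detected transcription factors, the 3 highest genes of each other list, and the 8 genes most like Apoa2. Exceptions are stated. A few genes covered by this rule are not reported here. The 14 lists were other plasma proteins, liver enzymes and transporters, liver transcription factors, small intestine, exocrine pancreas, kidney, choroid plexus and yolk sac, adipocyte, red blood cell, endothelium, macrophage, limb skeletal muscle, heart muscle, and receptors and uptake. Members and lists were chosen with earlier results of these data known. Alternatives were another background correction, the authors' table, 2 scalings, 2 filters, every probe, 2 groups fitted, replicate and slide column blocks, and each array left out.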

Additional observations from a re-analysis of the deposited data

How the results depend on the processing

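For MDX_JJ101 against MDX_tap, 7530 genes were called. The count was 3713 with spike-in scaling, 13640 without a filter, 3249 with 2 groups fitted, 0 with slide column as a block (8858 at an unadjusted p under 0.05), and 48 to 7701 with 1 array left out. For MDX_JJ101 against B10_tap, 7009 were called, against 4394 with spike-in scaling, 14092 without a filter and 76 to 6908 with 1 array left out. For MDX_tap against B10_tap, 5 were called, against 407 with normexp and quantile normalization, 348 with the authors' table, 285 with median centring, 413 with spike-in scaling, 151 with the filter on all 6 arrays, 15 with every probe, 125 with 2 groups fitted, 0 without a filter (5113 unadjusted), and 0 to 125 with 1 array left out. With spike-in scaling, limma's smallest adjusted p was 2.96e-87, 4.41e-93 and 7.53e-38 in these comparisons, in this order. Its counts are therefore not taken at face value. Spike-in scaling moved the median of all genes by -0.43 and -0.46 in MDX_JJ101 against MDX_tap and B10_tap, and median centring by 0.23 and 0.39. The split of higher and lower calls for MDX_JJ101 against MDX_tap became 79 and 3634 with spike-in scaling and 5692 and 1898 with median centring, beside 4160 and 3370; against B10_tap it became 105 and 4289, and 8457 and 1645, beside 3376 and 3633.

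The median of the 10 genes stayed below 0 in both comparisons with B10_tap under every alternative run. With 1 array left out it ranged from -2.32 to -0.59 for MDX_JJ101 and from -3.24 to -1.07 for MDX_tap. It was -0.38 for MDX_JJ101 and -0.43 for MDX_tap with normexp, and -0.51 and -0.62 with the authors' table, in which background is not subtracted. Over all alternatives and genes, single differences changed sign in 12 of 160 values for MDX_JJ101 against MDX_tap, 5 of 150 for MDX_JJ101 against B10_tap and 0 of 150 for MDX_tap against B10_tap. With the replicate number as a block, the counts were 6518, 5864 and 4. Deviations of same-numbered arrays correlated at 0.163 between MDX_JJ101 and MDX_tap, and at -0.064 and -0.031 between MDX_JJ101 and B10_tap and between MDX_tap and B10_tap. Since not every pair was above 0.1, the numbers were not taken as pairing the arrays. Same-numbered MDX_JJ101 and MDX_tap arrays also share a slide column, as those of B10_tap do not. A block for slide row, or for slide column in the comparisons with B10_tap, could not be fitted. Analyses without B10_tap replicate 2 were chosen after seeing the data for the lists. The cause of these changes was not tested.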
